A study of Mus musculus with 6 samples.

Results

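The genes described here are the 91 mouse genes whose symbol is Gpr followed directly by a digit, out of 24054 genes in a table of TPM values (transcript abundance scaled to a fixed library total) for 6 mice. TPM is also scaled to transcript length, so levels can be compared between genes. Most of the 91 encode G protein-coupled receptors, proteins that span the membrane and pass a signal from outside the cell to heterotrimeric G proteins inside it. Of the 91, 79 were above 0 TPM in at least 1 library, and 38 reached 1 TPM in at least 3 of the 6 libraries and were tested.

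The libraries came from c-Kit+ splenocytes, blood progenitors collected with magnetic beads against the receptor CD117. On both Flt3 alleles, all 6 mice had the internal tandem duplication (ITD) that makes this kinase receptor signal without its ligand. The 3 mice with acute myeloid leukaemia (AML) were Flt3ITD/ITD;Dnmt3afl/- with MxCre, that is, with 1 floxed and 1 null allele of the DNA methyltransferase gene Dnmt3a and a Cre recombinase under the interferon-inducible Mx promoter. The 3 mice with myeloproliferative neoplasm (MPN) were Flt3ITD/ITD;Dnmt3afl/fl, and no Cre is named in their titles. Genotype, Cre and disease therefore changed together and cannot be told apart. The mice have separate numbers in the labels, which give no age. The AML mice were moribund at harvest. The series asks which transcripts change with loss of Dnmt3a function in Flt3-ITD leukaemia.

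The Gpr symbols were handed out as receptors were found by sequence, so they gather several families. Adhesion receptors have long extracellular parts that bind matrix or neighbouring cells and are often cleaved next to the membrane. Proton-sensing receptors respond to acid. Another set responds to lysophospholipids, oxysterols, fatty acids and other small metabolites, which guide and activate leukocytes. Many others are orphans with no agreed ligand. A few Gpr-named proteins sit in the Golgi or lysosome and are not typical receptors of the cell surface.

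Dnmt3a stood at 11.5 to 13.5 TPM in the AML mice and at 29.3 to 33.9 TPM in the MPN mice. Relative depth, taken from the steps of low values in a second table, was 1.29, 1.0 and 0.739 in AML replicates 1 to 3 and 0.936 to 1.04 in the MPN mice, relative to their mean. Between 11780 and 12034 genes reached 1 TPM per library, 34 to 38 of them Gpr-named. MPN replicate 1 came from another sequencing run than the rest, per the file headers. Xist reached 186 TPM in AML replicate 1 and 194 TPM in AML replicate 2 and stayed at or below 0.06 TPM in the other mice, so AML held 2 females and 1 male, and MPN held males only. Kit, the selection marker, was present in all libraries, at 99.2 to 152 TPM.

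The adhesion receptor genes Gpr56 and Gpr97 lie side by side and both rose, and the oxysterol receptor gene Gpr183 and its neighbour Gpr18 both fell. Their promoter windows are therefore shown first. Each runs from 250 bases before to 50 bases after a RefSeq start site on GRCm38.p6, 5′ to 3′ on the gene's strand, with CpG dinucleotides, the sites that Dnmt3a can methylate, in capitals. The windows are chr8:94976859-94977158 and chr8:94984149-94984448 for the 2 starts of Gpr56, and chr8:95017442-95017741 for Gpr97, all on the plus strand. Those of Gpr18 and Gpr183 are chr14:121915839-121916138 and chr14:121965144-121965443 on the minus strand.
Gpr56, first start: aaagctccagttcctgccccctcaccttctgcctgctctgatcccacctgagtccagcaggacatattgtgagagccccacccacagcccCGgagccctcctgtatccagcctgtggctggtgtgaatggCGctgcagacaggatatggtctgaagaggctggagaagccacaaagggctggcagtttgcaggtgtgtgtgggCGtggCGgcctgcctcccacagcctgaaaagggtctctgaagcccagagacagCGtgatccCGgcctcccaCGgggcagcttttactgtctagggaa
Gpr56, second start: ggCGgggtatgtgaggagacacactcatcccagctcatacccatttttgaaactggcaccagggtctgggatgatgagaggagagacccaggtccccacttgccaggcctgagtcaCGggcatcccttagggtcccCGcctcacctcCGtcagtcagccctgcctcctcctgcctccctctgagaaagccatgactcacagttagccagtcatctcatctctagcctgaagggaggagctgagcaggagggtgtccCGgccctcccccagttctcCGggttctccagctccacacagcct
Gpr97: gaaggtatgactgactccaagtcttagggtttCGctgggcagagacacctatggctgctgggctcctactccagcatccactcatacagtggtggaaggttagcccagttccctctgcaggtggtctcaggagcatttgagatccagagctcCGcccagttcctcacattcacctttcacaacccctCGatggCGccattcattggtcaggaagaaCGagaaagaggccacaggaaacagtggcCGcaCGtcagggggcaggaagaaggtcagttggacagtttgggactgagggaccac
Gpr18: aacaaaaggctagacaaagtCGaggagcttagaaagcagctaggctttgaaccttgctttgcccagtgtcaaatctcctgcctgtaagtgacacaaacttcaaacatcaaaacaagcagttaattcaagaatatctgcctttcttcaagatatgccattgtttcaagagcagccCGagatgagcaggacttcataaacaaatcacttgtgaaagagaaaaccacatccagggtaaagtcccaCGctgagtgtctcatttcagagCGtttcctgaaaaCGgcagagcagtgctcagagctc
Gpr183: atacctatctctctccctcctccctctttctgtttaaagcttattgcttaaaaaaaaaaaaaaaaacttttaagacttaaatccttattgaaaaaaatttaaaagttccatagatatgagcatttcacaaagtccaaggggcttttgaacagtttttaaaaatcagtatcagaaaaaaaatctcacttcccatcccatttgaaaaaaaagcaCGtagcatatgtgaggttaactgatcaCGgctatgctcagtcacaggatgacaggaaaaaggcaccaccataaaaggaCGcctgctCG
The windows of Gpr56 (first start) and Gpr97 hold 7 CpG each, the second start of Gpr56 holds 6, Gpr18 holds 5 and Gpr183 holds 4. The median over all 32851 promoter windows of this length is 7, and 94.6% hold at least 1. All 5 windows lie between the lower and upper quartiles of 3 and 20. The letters TGTGGT, searched on both strands as the core of RUNX sites, occur once in the Gpr18 window and in 16.8% of all windows. AGGAAG, a core of ETS sites, occurs 2 times in the Gpr97 window. At least 1 copy occurs in 35.4% of all windows, and at least 2 copies in 8.62%. AGATAA, a core of GATA sites, occurs in none of the 5 and in 11.2% of all windows. RefSeq windows were matched for 64 of the 91 genes. In those that passed the test below, the largest CpG count per gene was 7 to 34 (median 13.5) in 4 genes higher in AML. It was 2 to 38 (median 7) in 11 genes lower in AML, so the ranges overlapped. The median was 12.5 in 14 genes that did not pass and 8 in 35 genes not tested. A link between CpG count and direction was not tested.

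Between AML and MPN, Gpr56 and 5 other Gpr-named genes rose, and 16 fell, among them Gpr18, Gpr34 and Gpr183. The test was limma on log2(TPM + 1), with Benjamini-Hochberg adjustment across the 12223 genes and a threshold of 0.05. Fold changes are AML minus MPN on that scale, which understates the change of low genes. Of the 38 tested, 22 passed (57.9%), against 30.1% of the 12223 genes tested. Higher calls were 15.8% against 20.1% over all genes, and lower calls 42.1% against 10%. The groups did not overlap for 25 of the 38 (65.8%), against 50.9% of all tested genes. The median log2 fold change was -0.53, and 0.13 over all tested genes. Among those tested, 5 genes, such as Gpr126, Gpr152, Gpr162 and Gpr176, passed the filter through 1 group only, the group where they were high. Among the other 33, 4 rose and 13 fell. These shares are a description of 38 genes and no test of the list.

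**Figure D1:**
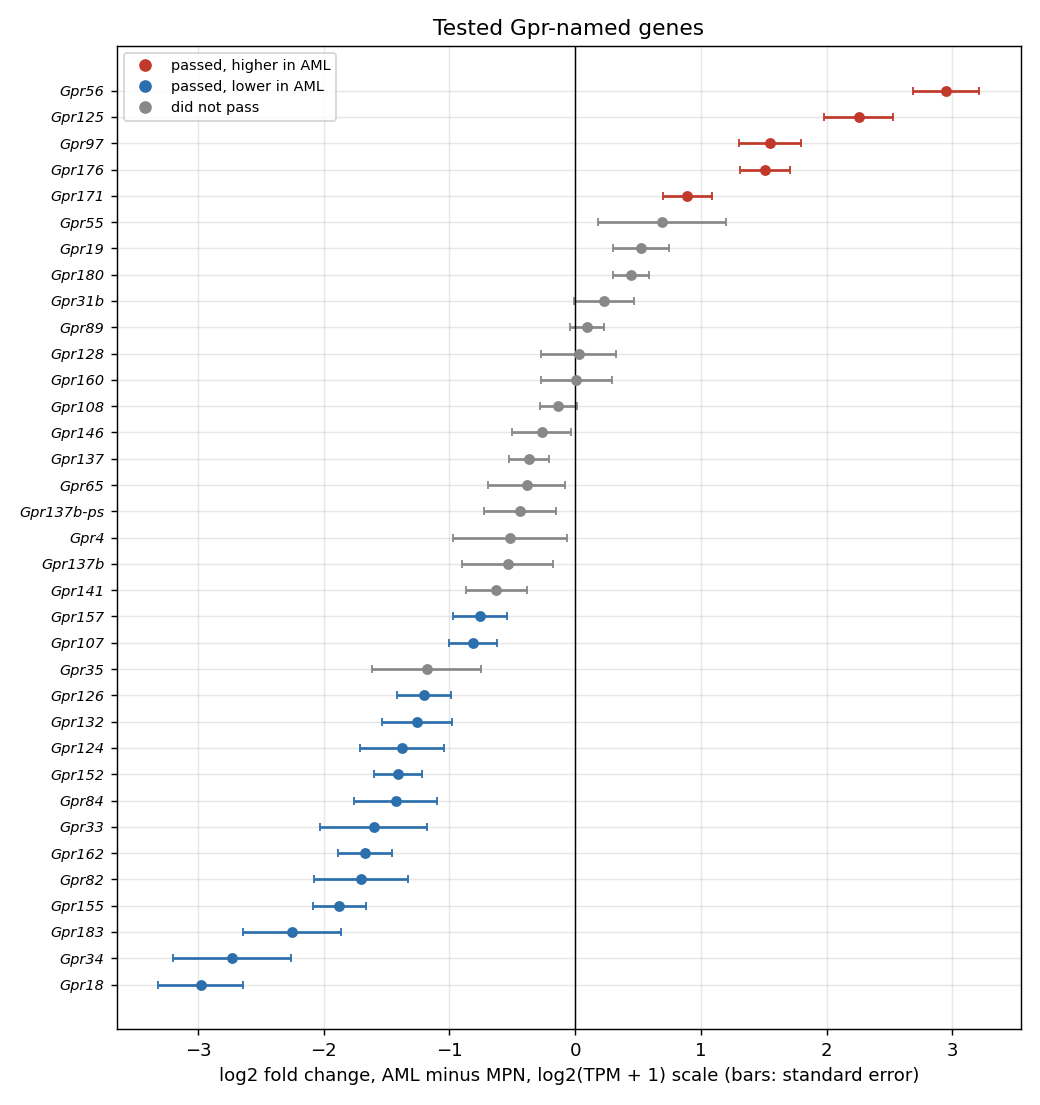
Log2 fold change (AML minus MPN, on the log2(TPM + 1) scale, x axis) of 35 of the 38 tested Gpr-named genes, with standard errors as bars. The 5 drawn genes that rose run up to 2.95 for Gpr56, the 14 that fell run down to -2.98 for Gpr18, and 16 did not pass.

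The makeup of the summed level of the 91 genes differed more than the sum. The sum was 1049, 1121 and 1088 TPM in AML replicates 1 to 3 and 1024, 1037 and 1041 TPM in MPN replicates 1 to 3. Gpr56 made up 42.2%, 33.5% and 24.8% of that sum in AML and 6.02%, 4.49% and 3.06% in MPN. It was the most abundant Gpr-named transcript in every AML mouse, at rank 4, 8 and 12 in the MPN mice, where Gpr132 led. In bulk RNA, fewer cells of a type and less RNA per cell cannot be told apart.

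Adhesion receptors went both ways. Of 16 in the table, 8 were tested, of which 4 rose (50%), 3 fell (37.5%) and 1, Gpr128, did not pass. The shares over all tested genes were 20.1% higher and 10% lower. Gpr56, now named Adgrg1, is a collagen-binding adhesion receptor known from brain development and from blood stem cells. It stood at 443, 375 and 270 TPM in AML replicates 1 to 3 and at 61.6, 46.6 and 31.9 TPM in MPN replicates 1 to 3. The lowest AML mouse was more than 4 times as high as the highest MPN mouse. The log2 fold change was 2.95 ± 0.27 (SE), with a limma adjusted p of 0.000502.

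Gpr97 (Adgrg3), an adhesion receptor of granulocytes, stood at 135, 197 and 119 TPM in AML and at 67.2, 45.6 and 39.6 TPM in MPN. The groups were separate, and the log2 fold change was 1.55 ± 0.25 (SE, adjusted p = 0.00434).

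On GRCm38, Gpr56 (94974751 to 95014217) and Gpr97 (95017692 to 95045250) lie on the plus strand of chromosome 8, with 3475 bases between them. Gpr97 was the less abundant of the pair in every AML mouse and in MPN replicate 2, while in MPN replicates 1 and 3 it was above Gpr56. With a term for sex, which in effect sets AML replicate 3, a male, against MPN, Gpr56 still passed (log2 fold change 2.55), and Gpr97 did not (1.24, adjusted p = 0.0582).

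**Figure D2:**
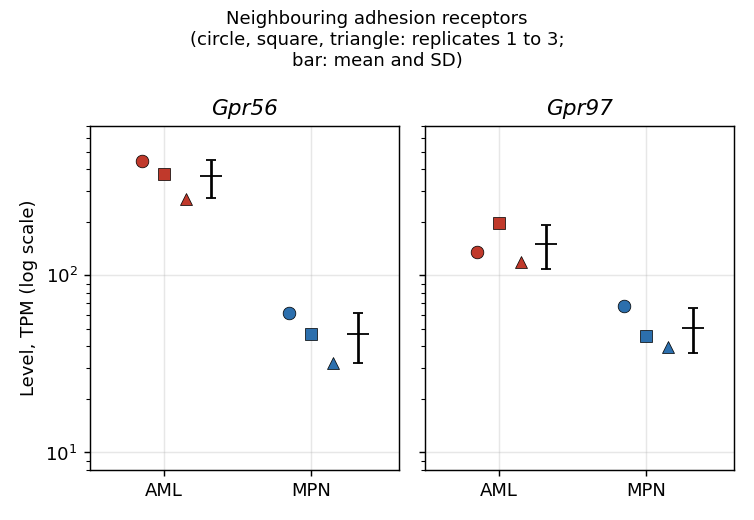
TPM (log scale, y axis) of Gpr56 and Gpr97, 1 point per mouse, with the group mean and SD beside the points. All AML points lie above all MPN points for both genes.

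Gpr125 (Adgra3), an orphan adhesion receptor, rose from 2.65, 1.84 and 1.75 TPM in MPN to 19.3, 13.9 and 9.20 TPM in AML, by 2.25 ± 0.27 (SE) on the log2 scale (adjusted p = 0.00145). The highest MPN mouse was far below the lowest AML mouse.

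Gpr124 (Adgra2), known as a Wnt co-receptor of brain vessels, fell from 34.4, 35.6 and 36.4 TPM in MPN to 8.37, 10.9 and 23.9 TPM in AML (log2 fold change -1.38 ± 0.33, adjusted p = 0.0203). The MPN mice were almost equal, and the AML mice were spread. Gpr126 (Adgrg6), known for its role in myelination, was low throughout, at 2.35, 2.06 and 3.68 TPM in MPN and 0.78, 0.59 and 0.39 TPM in AML (-1.20 ± 0.22, adjusted p = 0.00689). A term for sex ended the Gpr124 call (-0.55, adjusted p = 0.176), as did leaving out AML replicate 2 or any 1 MPN mouse (adjusted p of 0.0554 to 0.0732). Gpr128 stood at 2.49 to 6.06 TPM in AML and 2.81 to 3.85 TPM in MPN (0.03 ± 0.30, adjusted p = 0.951).

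Adhesion receptors under other symbols, 9 tested, also went both ways, with 4 higher (44.4%), 2 lower (22.2%) and 3 without a call. All tested genes had 20.1% higher and 10% lower. Of these, 3 reached 1 TPM in 1 group only, among them Emr4 and Lphn3, so both lower calls are genes that the filter kept through the MPN mice alone. Emr4 fell from 8.59 to 13.8 TPM in the MPN mice to 0.32 to 0.55 TPM in the AML mice (log2 fold change -3.16 ± 0.21, adjusted p = 0.000208). Lphn3, a latrophilin, was at 1.97 to 3.0 TPM in MPN and at most 0.01 TPM in AML (-1.80 ± 0.18, adjusted p = 0.000669), and Eltd1, a receptor of vessel walls, rose by 1.56 ± 0.20 (adjusted p = 0.00191).

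Receptors for lipids and metabolites that passed were all lower in AML. Of 13 in the table, 7 were tested, of which 4 fell (57.1%), 0 rose and 3 did not pass. Over all tested Gpr-named genes 42.1% fell and 15.8% rose, and over all tested genes 10% and 20.1%. The fall is therefore not particular to this set. Gpr18, reported to respond to N-arachidonyl glycine and abundant in lymphocytes, stood at 40.0, 48.7 and 67.0 TPM in MPN and at 3.04, 8.83 and 6.17 TPM in AML. The AML mean was 11.6% of the MPN mean, with no overlap, and the log2 fold change was -2.98 ± 0.34 (SE, adjusted p = 0.00119). Gpr183 (EBI2), the oxysterol receptor that positions B cells and dendritic cells in the spleen, stood at 19.2, 20.4 and 48.9 TPM in MPN and at 4.26, 7.40 and 3.51 TPM in AML. MPN replicate 3 was more than 2 times as high as the other MPN mice, and the groups still did not overlap (-2.25 ± 0.39, adjusted p = 0.00591).

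Gpr18 (chromosome 14, 121911253 to 121915781) and Gpr183 (121952551 to 121965195) lie 36770 bases apart on the minus strand. Both lie inside Ubac2, which runs on the plus strand, with no shared exon. Ubac2 did not pass, at 50.5 to 64.5 TPM in AML and 57.0 to 76.2 TPM in MPN (log2 fold change -0.16 ± 0.15, adjusted p = 0.451). Of the enzymes that make and break the ligand of Gpr183, Cyp7b1 fell from 1.61 to 8.57 TPM in MPN to 0.11 to 0.50 TPM in AML (adjusted p = 0.0363). Hsd3b7, which degrades it, rose from 40.7 to 58.9 TPM in MPN to 62.5 to 78.8 TPM in AML (0.52 ± 0.16, adjusted p = 0.0492). Ch25h, which starts its synthesis, was not tested, at 11.9, 0.15 and 0.42 TPM in AML and at most 0.12 TPM in MPN, so 1 AML mouse alone was high.

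Gpr34, a receptor for lysophosphatidylserine known from microglia and mast cells, stood at 38.6, 44.2 and 31.7 TPM in MPN and at 1.6, 9.38 and 6.43 TPM in AML, with a log2 fold change of -2.73 ± 0.47 (adjusted p = 0.0058). Its neighbour Gpr82, an orphan related to purine receptors, fell from 8.67, 10.8 and 8.13 TPM to 0.66, 3.29 and 3.25 TPM (-1.70 ± 0.37, adjusted p = 0.0143). Both genes lie on chromosome X, 20505 bases apart, inside Cask on the other strand with no shared exon, and Cask did not pass (-0.09 ± 0.20, adjusted p = 0.755). With a term for sex, neither passed (Gpr34 -2.39, adjusted p = 0.0701, and Gpr82 -1.25, adjusted p = 0.179), and Gpr82 did not pass without MPN replicate 2 (adjusted p = 0.0531).

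Gpr84, a receptor for medium-chain fatty acids in myeloid cells, stood at 6.98, 4.37 and 5.89 TPM in MPN and at 0.99, 3.11 and 0.86 TPM in AML (log2 fold change -1.43 ± 0.33, adjusted p = 0.0172). The call ended without MPN replicate 1 or 3 (adjusted p = 0.0595 and 0.0649). Gpr35, which responds to tryptophan metabolites, was at 71.4, 78.2 and 88.6 TPM in MPN and 16.9, 34.0 and 69.4 TPM in AML. The groups were separate by a small margin, because AML replicate 3 came close to the MPN mice, and Gpr35 did not pass (-1.18 ± 0.43, adjusted p = 0.0779). It passed without that mouse (-1.68, adjusted p = 0.00586) and with array weights (adjusted p = 0.018). Gpr55, a receptor for lysophosphatidylinositol, was at 1.06, 4.24 and 8.62 TPM in AML and 2.05, 1.41 and 2.37 TPM in MPN (0.69 ± 0.51, adjusted p = 0.331), and passed as higher without AML replicate 1 (1.28, adjusted p = 0.0216) and with array weights (0.016). Gpr31b did not pass (0.23 ± 0.24, adjusted p = 0.489).

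**Figure D3:**
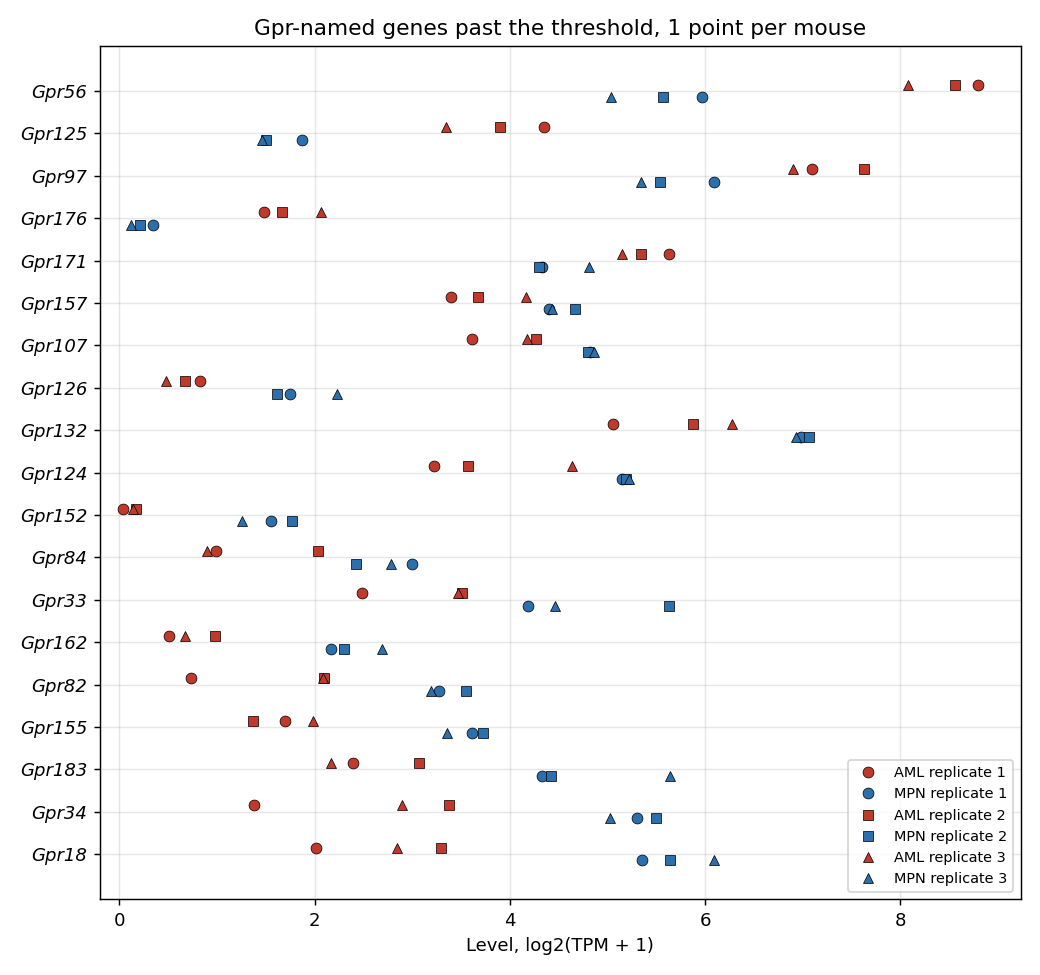
Level as log2(TPM + 1) (x axis) of 19 of the 22 Gpr-named genes that passed, ordered by fold change, 1 point per mouse, AML in red and MPN in blue with a symbol per replicate. In each row the red and blue points are separate, with Gpr56 near 8 to 9 in AML and near 5 to 6 in MPN.

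Of the acid sensors and their relatives, Gpr132 fell, and Gpr4 and Gpr65 did not pass. Gpr132 (G2A), related by sequence to the acid sensors and responsive to oxidised fatty acids, stood at 125, 133 and 121 TPM in MPN and at 32.4, 57.6 and 76.3 TPM in AML (log2 fold change -1.26 ± 0.28, adjusted p = 0.0149). AML replicate 3 was the highest AML mouse and still below all MPN mice. The call ended with a term for sex (-0.72, adjusted p = 0.189) and without MPN replicate 2 (0.0504) or MPN replicate 3 (0.0547).

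Gpr65 (TDAG8), the acid sensor of lymphocytes and macrophages, was at 74.9, 31.4 and 34.8 TPM in AML and 57.0, 52.0 and 62.9 TPM in MPN, so AML mice lay on both sides of the MPN range (-0.39 ± 0.31, adjusted p = 0.364). It passed as lower without AML replicate 1 (-0.77, adjusted p = 0.00678) and with array weights (-0.56, adjusted p = 0.0317). Gpr4, the acid sensor of endothelium, was at 10.6, 25.02 and 44.2 TPM in AML and 37.8, 38.0 and 25.3 TPM in MPN (-0.51 ± 0.45, adjusted p = 0.413). AML replicate 1 was lowest and AML replicate 3 highest of all 6 mice.

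**Figure D4:**
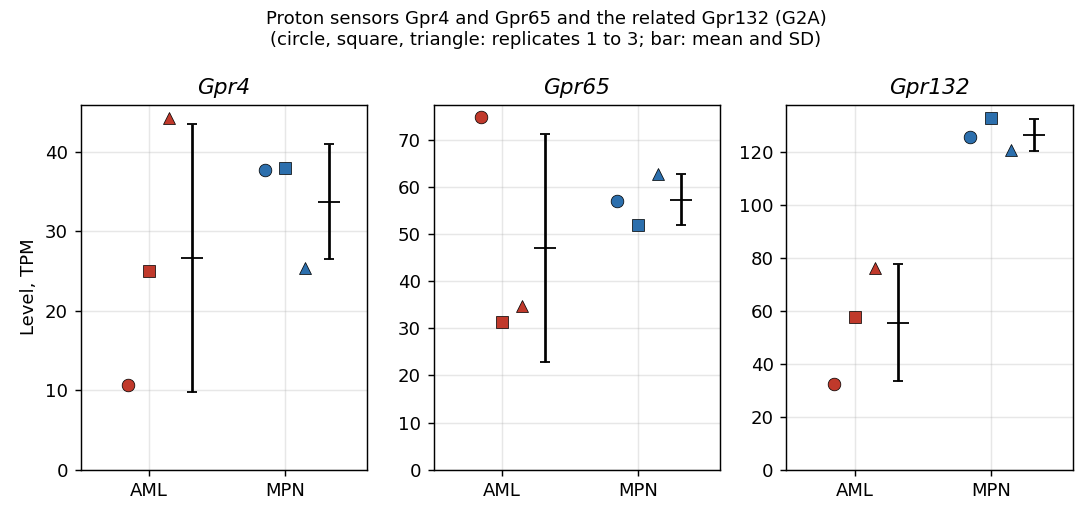
TPM (y axis, from 0) of Gpr4, Gpr65 and Gpr132, 1 point per mouse, with group mean and SD beside the points. Gpr132 shows separate groups, and for Gpr4 and Gpr65 the AML points lie on both sides of MPN points.

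Gpr171, a receptor for a neuropeptide that is also expressed in lymphocytes, rose from 19.1, 18.7 and 27.2 TPM in MPN to 48.4, 39.6 and 34.5 TPM in AML (log2 fold change 0.89 ± 0.19, adjusted p = 0.0135). It lies inside Med12l on the other strand with no shared exon, and Med12l rose too, from 0.97 to 2.14 TPM in MPN to 6.50 to 15.4 TPM in AML (1.87 ± 0.35, adjusted p = 0.00802). The library kit marks strand, but the sources used here do not say whether strand was used for these values. Among the tested genes described here, exons also overlap those of protein-coding genes on the other strand for Gpr55, Gpr89 (Gja5 and Pdzk1), Gpr124 (Brf2) and Gpr137 (Bad), and those of antisense RNAs for Gpr19, Gpr65, Gpr84, Gpr107, Gpr126 and Gpr155. Exons of Gpr176 overlap a processed transcript on its own strand. A term for sex ended the Gpr171 call (0.67, adjusted p = 0.178), as did leaving out MPN replicate 1 (0.0503) or MPN replicate 2 (0.0552).

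Of the Gpr-named proteins that are not typical surface receptors, 8 of 10 were tested, of which 2 fell and 6 did not pass. The lower share was 25%, against 42.1% of the tested Gpr-named genes and 10% of all tested genes. Gpr155, a lysosomal membrane protein that senses cholesterol, fell from 11.2, 12.2 and 9.23 TPM in MPN to 2.25, 1.58 and 2.97 TPM in AML (log2 fold change -1.88 ± 0.21, adjusted p = 0.00112). Gpr107, a Golgi protein, fell from 27.3, 26.8 and 28.2 TPM to 11.3, 18.3 and 17.0 TPM (-0.81 ± 0.19, adjusted p = 0.0182). The Gpr107 call ended with a term for sex (adjusted p = 0.203) and without any 1 MPN mouse (adjusted p of 0.0574 to 0.0625).

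Gpr180 was higher in every AML mouse, at 11.5, 11.8 and 13.3 TPM against 8.82, 8.24 and 8.88 TPM, and just missed the threshold (0.45 ± 0.14, adjusted p = 0.0509). It passed in the RPKM table (reads per kilobase, scaled to library size), with a pseudocount of 5, a filter at 5 TPM, array weights and no trend (adjusted p of 0.00788 to 0.0497). Gpr89, the Golgi pH regulator, was at 23.1 to 24.9 TPM in AML and 19.4 to 24.5 TPM in MPN (0.09 ± 0.14, adjusted p = 0.629), and Gpr108 at 39.5 to 56.8 and 50.9 to 54.2 TPM (-0.13 ± 0.15, adjusted p = 0.516). Gpr137 had a log2 fold change of -0.37 ± 0.16 (adjusted p = 0.121) and passed as lower with array weights (0.024). Gpr137b, a lysosomal membrane protein, and the transcribed pseudogene Gpr137b-ps share sequence, which makes both values uncertain. They were at 7.73, 11.98 and 24.6 and at 11.3, 13.6 and 26.0 TPM in AML, and at 17.4 to 21.8 and 20.3 to 24.1 TPM in MPN. Both passed as lower without AML replicate 3 (adjusted p = 0.0198 and 0.0178).

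Of the remaining 36 orphans, 9 were tested, of which 1 rose, 4 fell and 4 did not pass. The lower share was 44.4%, against 42.1% of the tested Gpr-named genes and 10% of all tested genes. Gpr176, known as an orphan of the brain's clock centre, rose from 0.27, 0.16 and 0.09 TPM in MPN to 1.8, 2.17 and 3.18 TPM in AML (log2 fold change 1.51 ± 0.20, adjusted p = 0.0022). Gpr162 fell from 3.51, 3.93 and 5.45 TPM to 0.42, 0.97 and 0.59 TPM (-1.67 ± 0.21, adjusted p = 0.00184). Gpr152 fell from 1.93, 2.41 and 1.39 TPM to 0.03, 0.13 and 0.10 TPM (-1.41 ± 0.19, adjusted p = 0.00223), and its exons overlap those of Cabp4 on the other strand. These 3 genes are low, and the groups were far apart in each. Their size depends on the pseudocount: with 0.1 in place of 1, Gpr176 rose by 3.20 and Gpr152 fell by 3.44, beyond Gpr56 (2.98) and Gpr18 (-3.18) in that fit.

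Gpr33, an orphan that is inactivated in most humans, stood at 17.2, 48.4 and 21.1 TPM in MPN and at 4.61, 10.4 and 10.1 TPM in AML (log2 fold change -1.6 ± 0.43, adjusted p = 0.028). Gpr157 fell from 20.2, 24.5 and 20.5 TPM to 9.56, 11.8 and 17.0 TPM (-0.75 ± 0.21, adjusted p = 0.0355). The Gpr33 call ended with a term for sex, no filter, and without AML replicate 1 or MPN replicate 2 or 3 (adjusted p of 0.0555 to 0.248), and the Gpr157 call with a term for sex, no filter, and when any 1 mouse but AML replicate 3 was left out (adjusted p between 0.0591 and 0.443). Gpr141 was at 22.4, 22.9 and 40.2 TPM in AML and 36.2 to 50.7 TPM in MPN (-0.63 ± 0.24, adjusted p = 0.0906), and passed as lower without AML replicate 3 (adjusted p = 0.0109) and with array weights (0.0264). Gpr19 (0.52 ± 0.23, adjusted p = 0.116) passed as higher without AML replicate 3 (adjusted p = 0.0494). Neither Gpr146 (-0.26 ± 0.23, adjusted p = 0.413) nor Gpr160 (0.009 ± 0.28, adjusted p = 0.984) passed.

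Of the 16 genes that fell, AML replicate 1 was the lowest AML mouse for 12, and AML replicate 3 was the highest for 6. AML replicate 1 also had the deepest library and AML replicate 3 the shallowest. The same counts were not made over all tested genes, so these have no background to be read against. The part of depth in these values was not tested.

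The other 53 Gpr-named genes were not tested. Of these, 12 were listed at 0 in all libraries and 43 stayed under 0.5 TPM, and the highest value was 1.97 TPM. They include the constitutively active receptors Gpr3, Gpr6 and Gpr12, all at most 0.11 TPM, and the brain receptors Gpr27, Gpr85 and Gpr173. With no filter, 3 of them passed, Gpr174 and Gpr182 as lower (log2 fold change -0.46 and -0.63) and Gpr62 as higher (0.35), all at low levels. Gpr174, a lysophosphatidylserine receptor of lymphocytes, was at 0.60, 0.32 and 0.43 TPM in MPN and 0.04, 0.03 and 0.09 TPM in AML.

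Over the lists of signalling partners, oxysterol enzymes and adhesion receptors under other symbols, 54 genes were tested, of which 12 rose (22.2%), 8 fell (14.8%) and 34 did not pass. Over all tested genes 20.1% rose and 10% fell, so these shares are near the background. The filter kept 6 of the 54 through 1 group only, of which 2 rose (Gnat2 among them) and 3 fell (Cyp7b1 among them). Of 10 tested G protein alpha subunits, 1 rose (Gnat2, 10%), 0 fell and 9 did not pass, with a median log2 fold change of 0.18. Gnai2, the main inhibitory alpha subunit of leukocytes, was at 568 to 759 TPM in AML and 613 to 705 TPM in MPN (-0.01 ± 0.13, adjusted p = 0.979). Gnas, the stimulatory subunit, was at 640 to 686 and 611 to 649 TPM (0.08 ± 0.10, adjusted p = 0.54). Of 11 tested beta and gamma subunits, 2 rose (18.2%) and 1 fell (9.09%). The gamma subunit Gngt2 fell from 43.0, 53.5 and 99.0 TPM in MPN to 5.80, 6.68 and 4.85 TPM in AML (-3.21 ± 0.30, adjusted p = 0.000546), and Gng12 rose from 23.1 to 29.7 TPM to 60.4 to 76.9 TPM (1.28 ± 0.15, adjusted p = 0.00123). Gnb5, a beta subunit, rose by 0.85 ± 0.15 (adjusted p = 0.00701).

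Of 7 tested receptor kinases and arrestins, which switch receptors off, 1 rose and 1 fell (14.3% each), against 20.1% and 10% over all tested genes. Adrbk2, a receptor kinase, fell from 156, 150 and 143 TPM in MPN to 36.1, 49.0 and 65.5 TPM in AML (log2 fold change -1.6 ± 0.20, adjusted p = 0.00175), and Grk6 rose by 0.48 ± 0.13 (adjusted p = 0.0317). Of 10 tested RGS genes, whose products speed the shut-off of G proteins, 2 rose (20%) and 3 fell (30%). Rgs12 fell from 42.7 to 53.9 TPM to 9.15 to 22.5 TPM (-1.56 ± 0.29, adjusted p = 0.00802), and Rgs2 from 135 to 176 TPM to 40.5 to 89.8 TPM (-1.23 ± 0.27, adjusted p = 0.0152). Rgs1 was at 10.02 to 14.8 TPM in MPN and 3.06 to 7.73 TPM in AML (-1.28 ± 0.30, adjusted p = 0.0192). Of 5 tested adenylyl cyclases, 1 (20%) rose, Adcy3 (1.11 ± 0.21, adjusted p = 0.00813), and 4 did not pass.

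Many listed markers of mature cells were lower in AML, and some did not pass. Of tested markers, 7 of 8 for macrophages, 3 of 4 for B cells, 4 of 7 for dendritic cells and 4 of 6 for neutrophils fell, and 0 rose, against 10% lower and 20.1% higher over all tested genes. Over the 7 marker lists, 46 genes were tested, and 10 of them, 9 lower and 1 higher, passed the filter through 1 group only. Their summed levels were 78.5 to 189 TPM in AML and 396 to 525 TPM in MPN for macrophages, and 26.9 to 36.3 and 60.5 to 75.8 TPM for B cells. They were 142 to 572 and 1135 to 1398 TPM for dendritic cells, and 4822 to 14584 and 21848 to 33719 TPM for neutrophils. S100a8 and S100a9, which fell, made up most of the neutrophil sums, while Cxcr2 and Retnlg did not pass. Cd79b, most of the B cell sum in AML, did not pass, at 26.1 to 33.9 TPM there and 26.9 to 38.2 TPM in MPN. Of 8 T and NK cell markers, 6 fell and Nkg7 rose, and their sum was 282 to 477 TPM in AML and 145 to 174 TPM in MPN. Nkg7 alone made up most of it, at 278 to 472 TPM in AML and 89.8 to 117 TPM in MPN. The other 7 summed to 3.29 to 4.75 TPM in AML and 55.6 to 70.7 TPM in MPN. Most of that MPN sum was Cd8a, at 40.8 to 58.3 TPM in MPN and 0.56 to 1.83 TPM in AML. The filter kept 5 of the 6 that fell, among them Cd3d, Cd3e and Cd3g, through the MPN mice only. No listed marker of these types was at 0 in all 3 AML mice, while C1qb, Marco, Ms4a1, Pax5, Ebf1, Cd3d, Cd3e, Cd3g, Ncr1, Gzma and Siglech, among others, were under 1 TPM in all of them. Of 6 stem and progenitor markers, 5 rose, with sums of 628 to 712 TPM in AML and 307 to 321 TPM in MPN. Mecom, among the 5, passed the filter through the AML mice only. The other marker, Kit, did not pass (limma log2 fold change -0.31 ± 0.13, adjusted p = 0.103). It was at 99.2 to 130 TPM in AML and 145 to 152 TPM in MPN, so the groups did not overlap. Erythroid markers summed to 13.9 to 1137 TPM in AML and 394 to 1747 TPM in MPN, lowest in AML replicate 3, and 1 of 7 fell. The part of these cell types in the changes of the Gpr-named genes was not tested.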

How the data were processed

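RNA-seq had been run on 6 libraries, 1 per mouse, 3 AML and 3 MPN, grouped by the source name in the labels. Per the labels' protocols, poly-A RNA was made into stranded paired-end libraries. The authors deposited TPM values per gene symbol, gene-level RSEM output per the file headers, and RPKM values per Ensembl identifier, which hold an added read. Per the submitters' processing notes, TopHat2, RSEM, Bowtie2, mm9 and mm10 were used, with no roles stated. Since TPM holds no depth, relative depth came from RPKM steps (tolerance 0.05 of a step).

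Genes at 1 TPM or more in at least 3 libraries were tested with limma 3.58.1 in R 4.3.3 (log2(TPM + 1), mean-variance trend, no covariate, two-sided). The fit was tested on simulated data. Current symbols came from RefSeq synonyms and positions from GENCODE M21 (90 of 91 genes), and 81 genes had RPKM values. Named were the Gpr-named genes that passed, tested ones with a mean of at least 5 TPM that did not, and the 3 called genes of each signalling list with the smallest p. Gpr31b, Gpr55, Gpr128, untested genes, host and neighbour genes, Ch25h, Gnai2, Gnas and markers were chosen after their values were seen. Some genes, counted in the totals, are not reported here. Members and lists were chosen with earlier results of these data known. Numbering of mice follows accession order and pairs none. Alternatives were pseudocounts of 0.1 and 5, quantile and median scaling, no filter, a 5 TPM filter, RPKM, no trend, array weights, a term for sex and each mouse left out.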

Additional observations from a re-analysis of the deposited data

How the results depend on the processing

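Of the 22 Gpr-named genes that passed, 9 passed in every one of the 16 alternatives in which they could be tested (Gpr18, Gpr56, Gpr125, Gpr126, Gpr152, Gpr155, Gpr162, Gpr176 and Gpr183), and 0 changed direction in any. With each mouse left out in turn, 4 to 7 genes rose and 9 to 20 fell, against 6 and 16 with all mice. The lower count was 10 without MPN replicate 2 and 9 without MPN replicate 3. Over all tested genes 2009 to 3705 passed, against 3678, with 2277 without MPN replicate 1, the other sequencing run, 2009 without MPN replicate 2 and 2280 without MPN replicate 3. Listed signalling genes that rose numbered 6 to 12 (12 with all mice, 6 without MPN replicate 1 and 7 without MPN replicate 3), and those that fell 6 to 13 (8 with all mice, 13 without AML replicate 3).

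With a term for sex, 7 Gpr-named genes fell, 4 rose, 3 listed signalling genes rose, 5 fell and 1208 genes passed in all. That fit takes the fold change from AML replicate 3 alone and assumes it varies like the others. A filter at 5 TPM left 5 listed signalling genes that rose, with fewer tested. In the RPKM table all 32 Gpr-named genes tested there had the same direction as in TPM, with 5 higher and 14 lower. Median scaling and quantile normalization each gave 6 and 16. Array weights, whose estimate stopped before it converged, gave 8 and 20.

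Log2 fold changes reversed only in genes that did not pass. Gpr128 turned to -0.056 with median scaling, -0.079 with quantile normalization and -0.29 with a term for sex, and ran from -0.31 to 0.20 with each mouse left out. Gpr160 turned to -0.075, -0.078 and -0.076 in these and ran from -0.28 to 0.26. With a term for sex Gpr108 turned to 0.10, Gpr137b to 0.31, Gpr137b-ps to 0.24 and Gpr4 to 0.40. With each mouse left out, Gpr108 ran from -0.25 to 0.0058, Gpr4 from -0.97 to 0.0066 and Gpr89 from -0.0093 to 0.15. The causes were not tested. No paired analysis was possible because the labels give mouse numbers that no 2 mice share.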

Other observations

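The RPKM table holds a further locus with a Gpr symbol that is not among the rows of the TPM table. Gpr141b, annotated in GENCODE M21 as a long intergenic non-coding RNA next to Gpr141, stood at 11.2, 30.1 and 57.0 RPKM in AML replicates 1 to 3 and at 47.8, 48.7 and 37.8 RPKM in MPN replicates 1 to 3. AML replicate 1 was lowest and AML replicate 3 highest of the 6 mice, as for Gpr4. Gpr141 itself was at 7.20, 7.38 and 12.4 RPKM in AML and 10.8, 13.03 and 16.8 RPKM in MPN.

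The P2ry genes that share the Med12l locus with Gpr171 did not rise with it. P2ry14, a receptor for UDP-sugars, was at 54.3, 57.0 and 77.3 TPM in AML and 69.9, 76.3 and 53.7 TPM in MPN (limma log2 fold change -0.09 ± 0.19 SE, adjusted p = 0.748). P2ry13 was lower in AML, at 0.66 to 1.37 TPM against 1.93 to 4.78 TPM (-0.92 ± 0.29, adjusted p = 0.0478).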
